A study of Caenorhabditis elegans with 36 samples.

Results

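The genes described here are the 1776 genes of the C. elegans X chromosome that the deposited annotation (WS190) lists only by a sequence name such as R09H3.3, without a gene symbol. They were chosen by a rule on position and name, as genes on X that start at or after 400000 bp. The first isoform was kept for each gene, and earlier results of these data were known when the genes were chosen. They make up 8.81% of the 20167 genes of the table and 63.9% of the 2781 genes on X. The 941 named genes on X from the same start, and the 10681 genes of the autosomes that also lack a symbol, serve as the comparison. The rule cuts X between R04A9.6, which starts at 398689 and was left out, and R04A9.1, which starts at 404898 and was kept. Mean Pol II at 23C in WT was 2.62 RPKM in R04A9.6 and 5.57 RPKM in R04A9.1.

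ChIP-seq was performed on whole young gravid adults of N2, the wild type (WT), and of the mutant hrde-1 (tm1200), each kept as 1 culture line over successive generations. Worms were held at 15 °C (15C), shifted to 23 °C (23C) and returned to 15 °C (p15C). The libraries of a genotype cover generation 3 at 15C (15C-G3), generations 2, 4 and 6 at 23C and generations 1 and 2 at p15C. From each of these 12 cultures there is a library for H3K9me3, a library for RNA polymerase II phosphorylated at serine 2 (Pol II) and an input library, 36 in all, and all belong to repeat 2 of the study. Adults were collected 114 to 120 h after the release of first-stage larvae at 15 °C and 50 to 55 h after it at 23 °C, so heat and time of collection cannot be told apart. The libraries of a phase are successive generations of 1 line, and p-values measure the spread between these libraries only. Signal from whole animals also cannot tell fewer cells of a type from less signal per cell.

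HRDE-1 is an Argonaute protein of the germline nucleus that carries small RNAs to nascent transcripts, where the nuclear RNAi pathway lowers transcription and directs trimethylation of histone H3 at lysine 9 (H3K9me3), a mark of heterochromatin. Serine 2 phosphorylation marks the elongating form of Pol II. The X chromosome of C. elegans is kept largely silent in the germline and carries many genes that act in somatic cells.

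Values are RPKM, the reads of a gene per kb and per megaread of the library (M). By estimate the Pol II libraries were sequenced to between 3.07 and 5.66 M reads, those of H3K9me3 to between 2.07 and 7.97 M, and the input libraries only to between 0.221 and 1.31 M. A typical unnamed X gene (the median) was covered by 25 to 53 reads of Pol II, 54 to 171 of H3K9me3 and 5 to 33 of input, so input gives only a coarse background. No unnamed X gene was listed at 0. The hrde-1 gene itself, on chromosome III, had 107 to 189 RPKM of Pol II in WT and 76.5 to 129 in the mutant, and the mutant was lower at each of the 6 generations. A value over the whole gene does not show the deletion itself, so it is a weak check of the labels. The 10 germline markers (glp-1, pgl-1 and others) were all detected, as were 7 sperm, 10 yolk and intestine, 7 muscle, 9 neuron and 6 hypodermis markers, none of them at 0. Summed Pol II over the germline markers was 439 to 598 RPKM in WT and 394 to 424 in hrde-1 at 23C, and 513 to 644 in WT and 361 to 532 in hrde-1 at p15C. These markers are given beside the comparisons between genotypes because they moved with them, and their part in the results was not tested.

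Most unnamed genes on X code for proteins. A current RefSeq table of C. elegans genes matched 1666 of them, of which 1591 are protein coding, 64 are pseudogenes and 11 are noncoding, and 110 were not matched. Of the matched genes 447 have gained a symbol since WS190. The symbols include 15 of npr neuropeptide receptors, 12 of nlp neuropeptide precursors and 5 of frpr receptors. By the lists of symbols used here there were 32 neuropeptide and neuropeptide receptor genes, 11 ion channel and transporter genes such as the mechanotransduction channel gene tmc-1, 9 transcription factor genes, 3 F-box genes and 3 genes of fatty acid metabolism. By these lists no member fell under chemoreceptors, cuticle genes or C-type lectins. The cuticle list matched whole prefixes and so missed 4 members with a cutl (cuticlin-like) symbol. A total of 118 members overlap another gene, and their reads cannot be divided because ChIP reads carry no strand. In 331 members (18.6%) the reads recovered from the RPKM values did not come to whole numbers within 0.05 reads. The sources used here do not give how reads with several alignments were counted, and the values of these genes are uncertain.

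Unnamed X genes carried little Pol II. The median over the members ranged from 2.12 RPKM in WT at 15C-G3 to 4.21 RPKM in hrde-1 at p15C-G1, with 2.84 RPKM in the middle of the 12 libraries. Named X genes ranged from 2.99 to 5.13 RPKM and unnamed autosomal genes from 4.10 to 6.61 RPKM. The ratio of the members to unnamed autosomal genes was 0.468 to 0.637, and the members were below named X genes in each of the 12 libraries. In input the same ratio was 0.891 to 0.984. H3K9me3 differed less between the classes. Its median was 6.88 to 8.57 RPKM over the members, 1.05 to 1.13 times that of unnamed autosomal genes and 0.947 to 0.977 times that of named X genes.

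**Figure D1:**
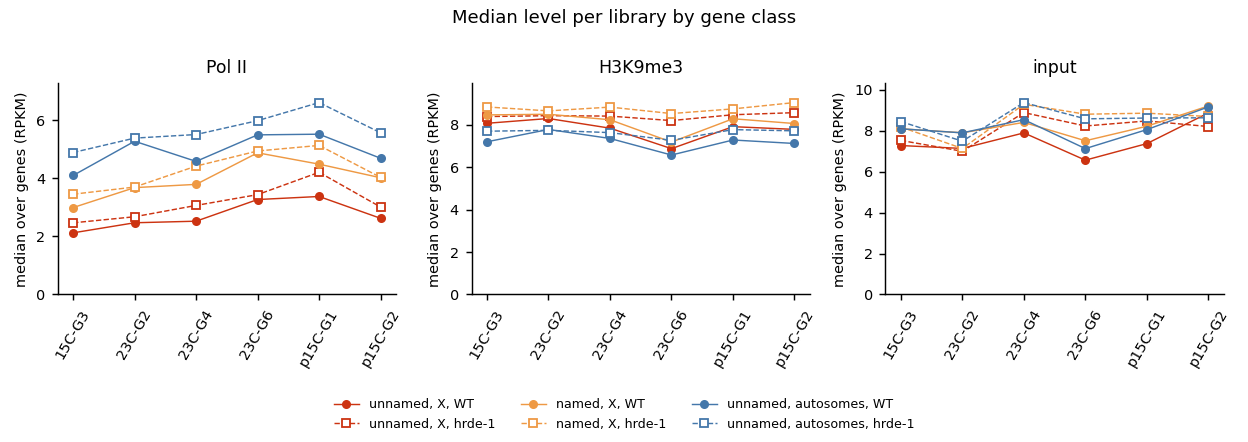
Median RPKM over the genes of a class (vertical axis) in each library (horizontal axis, generations in order) for Pol II, H3K9me3 and input. Red, unnamed X genes; orange, named X genes; blue, unnamed autosomal genes; filled circles, WT; open squares, hrde-1. Unnamed X genes had the lowest Pol II median of the 3 classes in all 12 libraries, from 2.12 to 4.21 RPKM, while their H3K9me3 median lay above that of unnamed autosomal genes by 1.05 to 1.13 times.

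Across the members, Pol II and H3K9me3 were only weakly opposed. Spearman's rho between the WT means of both marks was -0.24 over the 1776 members, -0.32 over the named X genes and -0.66 over the unnamed autosomal genes, and in hrde-1 it was -0.26, -0.35 and -0.68. These are descriptions across genes, which share libraries and are not independent. The highest WT mean of Pol II belonged to C30E1.9, a noncoding RNA gene at X:16929831-16930748. The WT libraries of this gene held 360.0 RPKM at 15C-G3, 597, 426 and 283 RPKM at 23C, and 357 and 406 RPKM at p15C, with the generations of a phase in order here and below. In hrde-1 C30E1.9 had 324 RPKM at 15C-G3, 552, 288 and 270 RPKM at 23C, and 268 and 288 RPKM at p15C. In both genotypes 23C-G2 was the highest library. The others of the first 5 were ZK470.2, F42D1.2 (tatn-1, which encodes tyrosine aminotransferase), C42D8.9 and F57G12.1.

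H3K9me3 varied along X. In the left sixth of the chromosome, the part the study set apart, the 269 members had a median H3K9me3 1.11 to 1.19 times that of the other 1507 members, against 0.915 to 1.08 times for Pol II and 0.973 to 1.17 times for input. In the 15C-G3 libraries the input ratio was as large as that of H3K9me3, at 1.14 against 1.12 in WT and 1.13 against 1.13 in hrde-1. The highest window of 0.5 Mb lay between 1.5 and 2.0 Mb. Its 55 members had a median H3K9me3 of 12.3 to 19.3 RPKM per library, against 6.82 to 8.49 RPKM for all other members, and their input of 6.96 to 8.76 RPKM lay within the range of the others, 6.55 to 8.90 RPKM. Their Pol II was 1.227 to 3.59 RPKM, against 2.16 to 4.23 RPKM. This window was chosen after its values were seen. It holds R09H3.1 and R09H3.3 with WT means of 34.3 and 34.1 RPKM, K06A9.1 with 33.6 RPKM and C36C9.1 (meg-4), which encodes a protein of germline P granules, with 27.8 RPKM. The median change of H3K9me3 in this window between hrde-1 and WT at 23C was 0.05 on the log2 scale, against 0.11 over all members, and at p15C it was -0.14, against 0.10 over all members. Input in the window changed by a median of -0.01 at 23C and 0.01 at p15C.

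The highest WT mean of H3K9me3 among the members belonged to the pseudogene Y64H9A.1 (X:5057332-5057550), whose reads were not whole. H3K9me3 at Y64H9A.1 was 66.0 RPKM at 15C-G3, 63.0, 58.1 and 65.6 RPKM at 23C and 69.9 and 69.4 RPKM at p15C in WT, and 68.7, 64.4, 65.2, 69.0, 71.7 and 72.9 RPKM in the same order in hrde-1. The genotypes overlapped. Y81B9A.2 came next, with 47.8 to 63.6 RPKM in WT and 54.3 to 68.8 RPKM in hrde-1, also with reads that were not whole. The remaining 3 of the first 5 were F41G4.7, F41G4.5 and K09E3.1, which are described below for Pol II. The 64 pseudogenes had a median of 10.4 RPKM of H3K9me3 in WT, against 7.70 RPKM in the 1591 protein-coding members.

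To ask which unnamed X genes depend on HRDE-1 during heat, hrde-1 was compared with WT at 23C in Pol II, with 3 libraries per genotype. Calls required a limma adjusted p no higher than 0.1 together with a minimum change of 2-fold, both on log2(RPKM + 1) in a fit over all genes. Pol II rose at 11 of the 1773 members tested (0.62%) and fell at 0, with 37 higher and 15 lower at an unadjusted p under 0.05. Over all 20116 genes tested 0.795% rose and 0.0547% fell, with 512 higher and 308 lower at that unadjusted p. The members' share was thus close to the background. Of the named X genes 0 passed the test by limma, with 8 higher and 11 lower at an unadjusted p under 0.05, and 1.11% of unnamed autosomal genes rose. The median change over the members was 0.08, as over the named X genes (0.08), against 0.03 over all genes. Of the 64 genes of X before the start used here, which the rule leaves out, 3.12% rose and 6.25% fell. With WT and hrde-1 libraries of a generation paired, the same 11 members were called. F22H10.5 and C07D8.2 were then also called higher, and T27A8.4 lower (-1.16, limma adjusted p = 0.00161). The share of all genes called with this pairing at 23C is not given here, so the added calls are not read as particular to the members.

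The 11 genes lay in 7 places separated by more than 10 kb, with 3 genes each in the F41G4 and K09E3 clusters. Of the 11, 4 are protein coding (R09H3.3, K09E3.2, F41G4.7 and H39E20.1), 3 are pseudogenes (K09E3.4, F41G4.5 and F47B7.6) and 4 are not in the current RefSeq table (F22H10.4, F41G4.4, K09E3.1 and C07D8.3), against 6.19% of all members. None has a symbol, and their functions are not known from the annotation used. R09H3.3, F41G4.5 and F41G4.7 are also on the list of heat-inducible genes that the study chose on mRNA of the same experiment. Their direction is therefore not independent evidence. That list assigns F41G4.5 and F41G4.7 to the long-terminal-repeat retrotransposon CER12 and places a CER12-I element downstream of R09H3.3. The 5 genes with the largest rise are given in full, and the others were named after their values were seen. Because the 11 were called on the 23C libraries, a gap between genotypes there is in part built in by the call. All hrde-1 libraries were above all WT libraries in Pol II at 23C at 6.14% of all members and 5.43% of all genes.

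R09H3.3 (X:1667164-1668076) showed the largest rise. WT libraries held 0.692 RPKM of Pol II at 15C-G3, 1.41, 2.53 and 2.50 RPKM at 23C, and 2.03 and 1.94 RPKM at p15C. In hrde-1 R09H3.3 had 1.58 RPKM at 15C-G3, 11.4, 11.4 and 8.88 RPKM at 23C, and 3.58 and 2.23 RPKM at p15C. The 23C libraries of hrde-1 stood above all 9 other libraries. At 23C the mean was 10.6 ± 1.47 RPKM in hrde-1 and 2.15 ± 0.642 RPKM in WT (SD, n = 3 each), from 60 to 120 reads and 10 to 20 reads per library. The log2 change was 1.89 (SE 0.24), with an adjusted p of 0.000373 by limma.

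K09E3.2 (X:17117575-17117904) and its neighbour K09E3.4 (X:17119185-17120179) were already high in hrde-1 before the heat. WT held 1.52 RPKM of Pol II at K09E3.2 at 15C-G3, 1.74, 2.55 and 2.02 RPKM at 23C and 4.43 and 2.83 RPKM at p15C. In hrde-1 it was 8.24 RPKM at 15C-G3, 6.33, 11.6 and 8.52 RPKM at 23C and 7.99 and 6.11 RPKM at p15C. All 6 libraries of hrde-1 were above all 6 of WT, the library from before the heat included. The log2 change at 23C was 1.64 (SE 0.24, limma adjusted p = 0.00149). K09E3.4 had 3.14 RPKM at 15C-G3, 2.05, 3.03 and 3.91 RPKM at 23C and 4.40 and 3.91 RPKM at p15C in WT, and 5.76, 9.06, 12.5, 9.15, 7.86 and 7.88 RPKM in the same order in hrde-1. Here too the genotypes did not overlap, and the change at 23C was 1.50 (SE 0.20, limma adjusted p = 0.000841). The reads of both genes were not whole, and K09E3.1 of the same cluster, also not whole, changed by 1.34.

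F22H10.4 (X:16684331-16685624) was likewise high at 15C-G3 and differed widely between generations. Here WT held 4.502 RPKM of Pol II at 15C-G3, 6.33, 2.42 and 3.02 RPKM at 23C and 7.18 and 5.63 RPKM at p15C, and in hrde-1 it was 13.1 RPKM at 15C-G3, 19.8, 12.2 and 9.01 RPKM at 23C and 9.10 and 8.27 RPKM at p15C. Every library of hrde-1 was above every library of WT. The change at 23C was 1.59 (SE 0.29, limma adjusted p = 0.0104), whereas within hrde-1 the 23C libraries differed from the 15C library by -0.004.

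In the F41G4 cluster (X:16830002-16836312) F41G4.4, F41G4.5 and F41G4.7 lie side by side on the minus strand. Pol II at F41G4.5, whose reads were not whole, was 1.20 RPKM at 15C-G3, 2.05, 1.76 and 2.32 RPKM at 23C and 3.81 and 2.60 RPKM at p15C in WT. In hrde-1 F41G4.5 had 1.93 RPKM at 15C-G3, 9.42, 6.85 and 6.59 RPKM at 23C and 8.06 and 6.28 RPKM at p15C. The hrde-1 library from before the heat lay within the range of WT and the 5 later ones lay above it. F41G4.5 changed by 1.49 (SE 0.22, limma adjusted p = 0.00155), F41G4.7 by 1.47 and F41G4.4 by 1.38. At F41G4.7 Pol II rose from 2.34 RPKM at 15C-G3 to 7.17 to 8.73 RPKM at 23C in hrde-1, and was 7.24 and 4.98 RPKM at p15C.

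The remaining changes at 23C were 1.36 for H39E20.1, 1.30 for C07D8.3 and 1.12 for F47B7.6. The call of F47B7.6 was lost without the hrde-1 23C-G4 library (limma adjusted p = 0.132), and the other 10 were called in each fit that left out 1 library. Of the 11 genes 6 had reads that were not whole: K09E3.2, K09E3.4, K09E3.1, F41G4.5, C07D8.3 and F47B7.6. When input was subtracted on the log2 scale, the change stayed positive at all 11 with a median of 1.97, and 7 were still called. R09H3.3, K09E3.2, F22H10.4 and H39E20.1 no longer passed the limma threshold, with changes of 1.69 (SE 0.42), 1.97 (SE 0.51), 1.76 (SE 0.61) and 0.80 (SE 0.50).

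**Figure D2:**
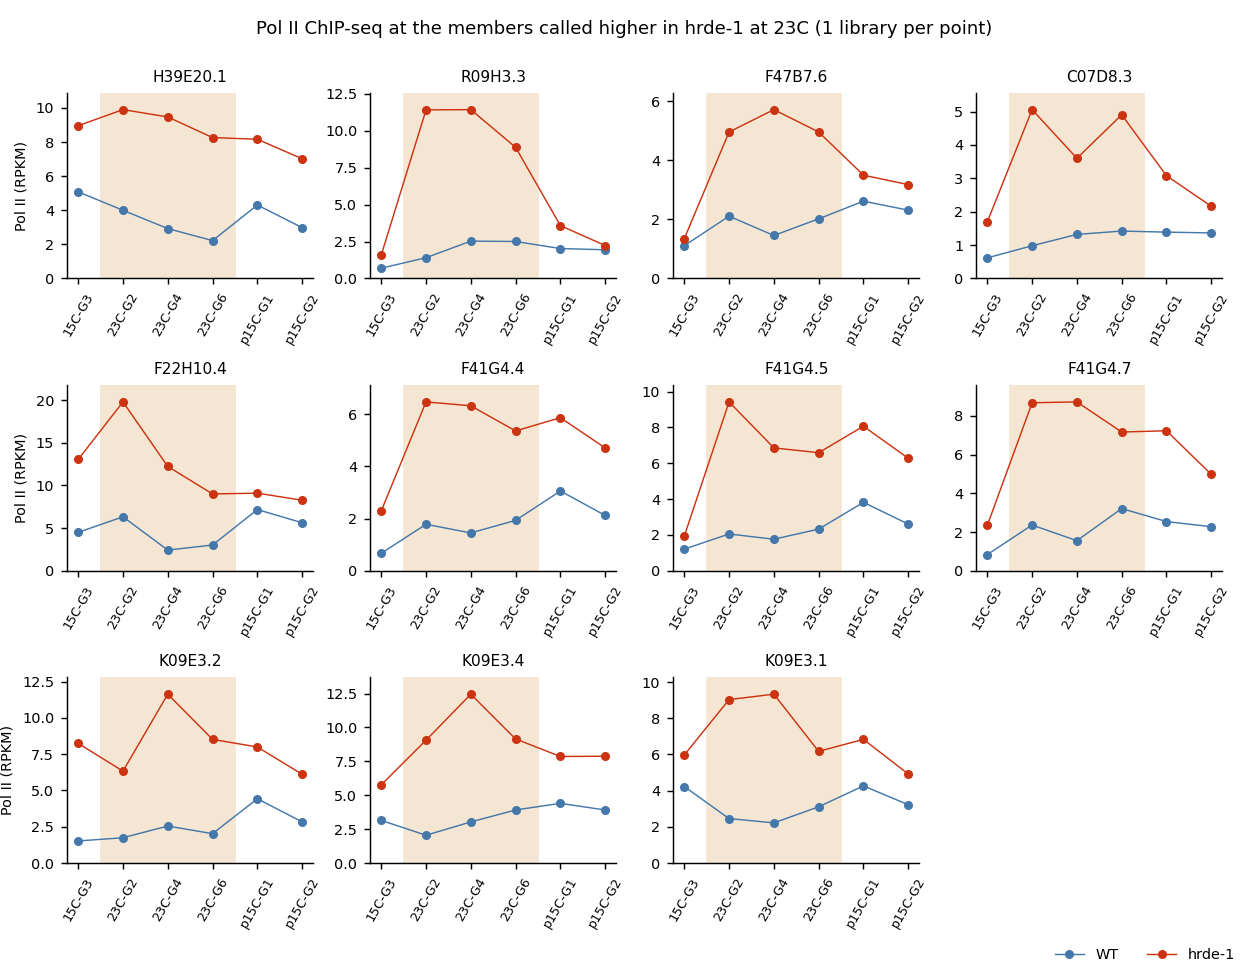
Pol II (RPKM, vertical axes) in each library (generations in order on the horizontal axes) for the 11 unnamed X genes called higher in hrde-1 at 23C. Blue, WT; red, hrde-1; 1 point per library; the shaded span covers 23C. At every gene the 3 hrde-1 points at 23C lie above the 3 WT points, as at 6.14% of all members and 5.43% of all genes. The genes were called on these same points. R09H3.3 falls from 8.88 to 11.4 RPKM at 23C to 2.23 and 3.58 RPKM at p15C.

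Pol II of these 11 genes did not climb through the generations at 23C. Their median in hrde-1 was 2.34 RPKM at 15C-G3, then 9.03, 9.33 and 7.17 RPKM over the generations at 23C, and 7.24 and 4.98 RPKM over those at p15C. No gene of the 11 had an increase from 23C-G2 to 23C-G4 and again to 23C-G6 in hrde-1, against 43.2% of all members. The 11 were called on these same libraries against their spread, and a climb widens the spread. The contrast with all members is therefore in part built in. The study names F41G4.7 among genes whose mRNA tended to increase over the 23C generations. It also reports stronger Pol II at 23C-G4 and 23C-G6 than at 23C-G2 over its heat-inducible genes. The WT median of the 11 genes was 1.20 RPKM at 15C-G3, 2.05 to 2.32 RPKM at 23C, and 3.81 and 2.60 RPKM at p15C. At 15C-G3, with 1 library per genotype and no test, all 11 were already higher in hrde-1 than in WT, as were 61.7% of all members. Input in that pair of libraries was also higher in hrde-1 at 9 of the 11, for example 17.4 against 8.51 RPKM at R09H3.3 (9 and 6 reads) and 31.1 against 18.8 RPKM at K09E3.2 (11 and 9 reads), and its part in the difference was not tested. At p15C all 11 were higher in hrde-1, with a median change of 0.78 against 0.15 over all members. By limma 0 of them were called at p15C, with 6 at an unadjusted p under 0.05. With generations paired F41G4.7 was called at p15C (1.04, limma adjusted p = 0.0222, against 0.172 unpaired).

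Most of the neighbours that were not called changed little. The called genes of the F41G4 and K09E3 clusters are neighbours of each other and are left out here, so a low median is in part built in. Within 10 kb of the 11 genes lie 30 other genes that were not called, whose median change at 23C was 0.05, with 17 of 30 positive. K09E3.7 changed by 0.84 with a limma adjusted p of 0.0367, under the 2-fold limit. C07D8.2, next to C07D8.3, changed by 1.06 with a limma adjusted p of 0.220, and F22H10.5, next to F22H10.4, changed by 1.02 with an adjusted p of 0.112. Both were called when WT and hrde-1 libraries of a generation were paired.

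H3K9me3 was high at most of these genes. Of the 11, 9 were in the highest 10% of the members by WT mean of H3K9me3 (11.1 RPKM or more), and the median of the 11 was 30.2 RPKM, against 7.74 RPKM over all members. Input had a median WT mean of 17.9 RPKM against 7.61 RPKM, and the median ratio of H3K9me3 to input was 1.57 against 1.03. The exceptions were F22H10.4 and H39E20.1, at 7.60 to 9.96 RPKM and 6.34 to 11.2 RPKM in WT. At R09H3.3 H3K9me3 was 33.4, 28.9, 29.7, 33.9, 33.1 and 45.3 RPKM in WT from 15C-G3 to p15C-G2 and 20.9, 21.5, 20.4, 27.3, 26.5 and 26.1 RPKM in hrde-1, so that each hrde-1 library was below each WT library. The change of R09H3.3 at 23C was -0.41 (limma adjusted p = 0.211), which did not pass the test.

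F41G4.7 held 47.9, 39.5, 41.9, 44.3, 37.1 and 47.4 RPKM of H3K9me3 in WT and 28.8, 28.4, 22.7, 27.9, 21.2 and 27.4 RPKM in hrde-1, with no overlap. Its change at 23C was -0.66 (SE 0.16, limma adjusted p = 0.0361), under the 2-fold limit. Among the 11 genes the change of H3K9me3 at 23C was negative for 9, with a median of -0.41, and 4 had an adjusted p of 0.1 or less by limma (K09E3.4, F41G4.7, K09E3.2 and F47B7.6, at -0.78, -0.66, -0.54 and -0.48). At p15C all 11 were negative, with a median of -0.57, and 5 had an adjusted p of 0.1 or less. At 23C all hrde-1 libraries were below all WT libraries at 7 of the 11 genes, against 1.97% of all members and 6.14% of all genes, and input did the same at 5 of the 11, against 4.5% of all members. Input also moved with these genes. It was lower in hrde-1 at 23C at 9 of the 11, with a median change of -0.61 against 0.10 over all members. With input subtracted the direction of the H3K9me3 change did not hold. It was positive at 7 of the 11 and negative at 4 (R09H3.3, K09E3.4, K09E3.2 and H39E20.1, at -0.61, -0.48, -0.20 and -0.13), with a median of 0.13 against -0.01 over all members. By limma 0 of the 11 had an adjusted p of 0.1 or less, with 2 positive (C07D8.3 and K09E3.1) and 0 negative at an unadjusted p under 0.05. At p15C 4 were positive and 7 negative, with a median of -0.04. At F41G4.7 the change at 23C went from -0.66 to 0.21 (SE 0.42), where input itself changed by -0.87.

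**Figure D3:**
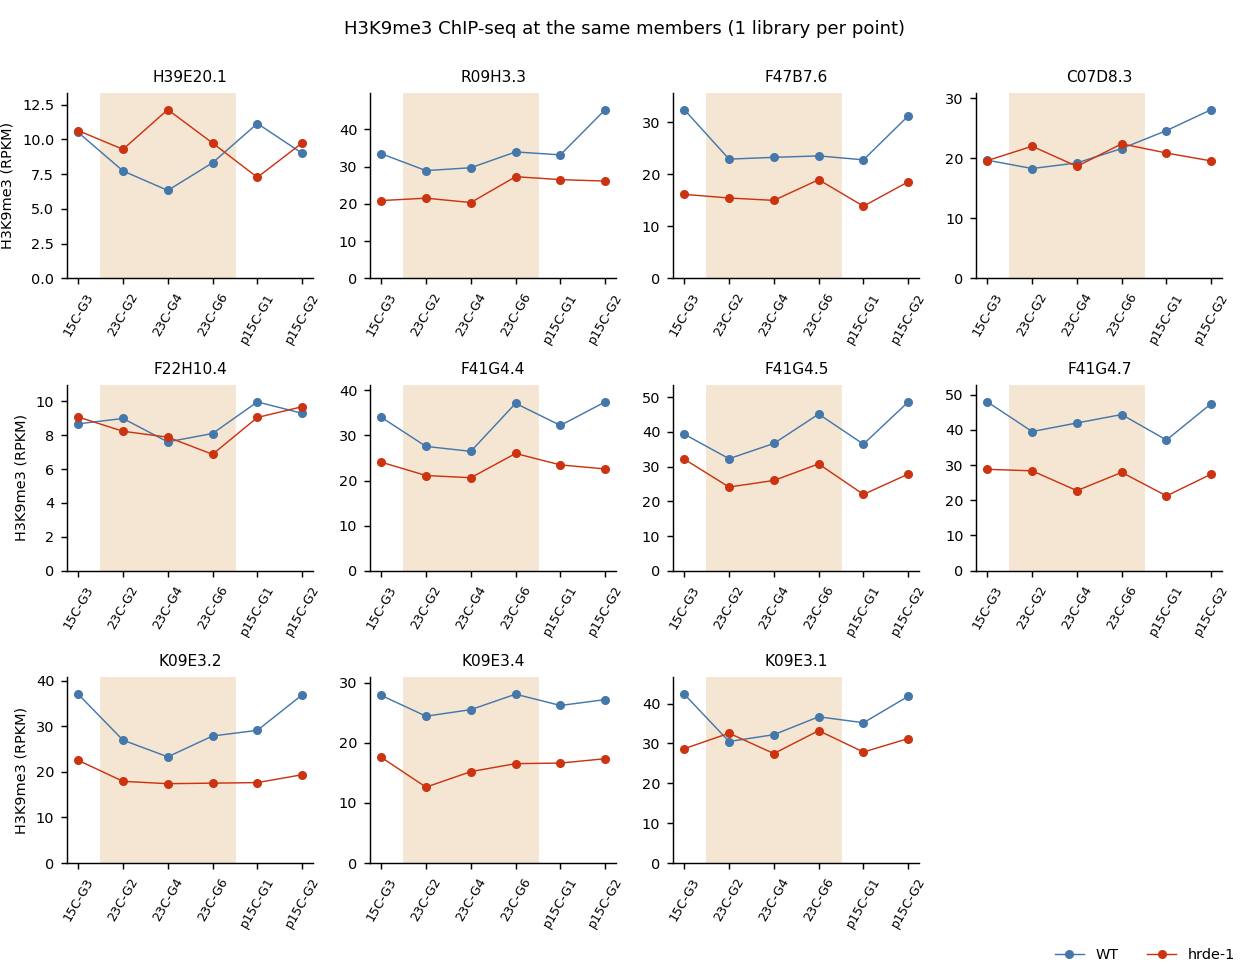
H3K9me3 (RPKM, vertical axes) in each library for the same 11 unnamed X genes, with the same colours and order. Every hrde-1 point lies below every WT point at R09H3.3, F47B7.6, K09E3.2, K09E3.4, F41G4.4, F41G4.5 and F41G4.7, by a narrow margin at F41G4.5 (32.2 against 32.3 RPKM), whereas the genotypes overlap at H39E20.1, F22H10.4, C07D8.3 and K09E3.1. At 23C alone all hrde-1 libraries were below all WT libraries at 1.97% of all members and 6.14% of all genes. The share over all phases was not counted. Input is not subtracted here.

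**Figure D4:**
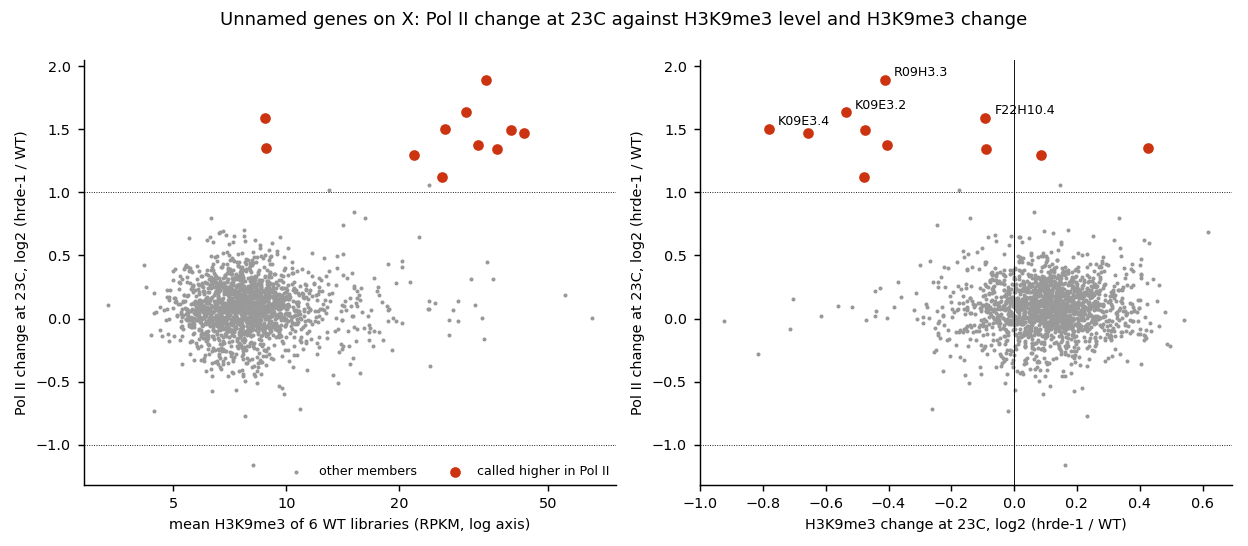
Log2 change of Pol II between hrde-1 and WT at 23C (vertical axes) against the WT mean of H3K9me3 (left, RPKM, log axis) and against the log2 change of H3K9me3 at 23C (right). Each point is an unnamed X gene; the 11 called higher in Pol II are red; dotted lines mark 2-fold. Of the red points 9 lie at 11.1 RPKM or more of H3K9me3, and 9 have a negative H3K9me3 change, or 4 once input is subtracted.

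H3K9me3 itself passed the test in few members. At 23C none of the 1776 members was called in either direction by limma, while over all genes 0.00992% rose and 0.838% fell. At an unadjusted p under 0.05, 230 members were higher and 38 lower in hrde-1, as were 1636 and 1159 of all 20167 genes. Of the 941 named X genes 152 were higher and 7 lower. The median change was 0.105 over the members, 0.113 over the named X genes and 0.062 over all genes. At p15C F08F1.9 fell (0.0563% of the members) and none rose, against 0.902% lower and 0.00992% higher over all genes. At an unadjusted p under 0.05, 67 members were higher and 48 lower. Of all genes 1070 were higher and 1245 lower at that threshold, and of the named X genes 36 and 10. F08F1.9 (X:8409908-8410434), a protein-coding gene whose reads were not whole, had 18.7 RPKM of H3K9me3 at 15C-G3, 16.7, 18.0 and 17.5 RPKM at 23C and 18.4 and 22.7 RPKM at p15C in WT. In hrde-1 F08F1.9 had 17.3 RPKM at 15C-G3, then 9.17, 7.76 and 9.23 RPKM at 23C and 9.03 and 9.30 RPKM at p15C. The hrde-1 library from before the heat was at the level of WT and all 5 later ones were far below it. The change was -1.08 at p15C (SE 0.13, limma adjusted p = 3.5e-05) and -0.92 at 23C (adjusted p = 1.23e-05), and without the WT p15C-G2 library the change at p15C fell short of 2-fold. With input subtracted the change at p15C stayed negative and was not called. Its Pol II change at 23C was -0.02.

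With no fold minimum, an alternative chosen after seeing the data, 25 members (1.41%) rose and 17 (0.957%) fell in H3K9me3 at 23C by limma. Over all genes 0.962% rose and 2.75% fell, and over the named X genes 1.91% and 0.319%. At p15C 0 rose and 13 (0.732%) fell, against 0.387% and 2.35% of all genes. The fallers came partly in groups. F20B6.1, F20B6.5, F20B6.6 and F20B6.7 lie within 10 kb of each other at X:4198586-4207453 and fell by 0.43 to 0.56 at 23C, and F02C12.2 and F02C12.3 lie side by side and fell by 0.36 and 0.70. T01C8.5 (got-1.2, which encodes an aspartate aminotransferase) had 12.4 RPKM at 15C-G3, 13.2, 13.3 and 12.5 RPKM at 23C and 10.9 and 9.94 RPKM at p15C in WT, and 9.15, 6.34, 7.46, 7.06, 6.67 and 8.56 RPKM in the same order in hrde-1. Its genotypes did not overlap, and the change at 23C was -0.82 (SE 0.11, limma adjusted p = 6.93e-05). The largest rise was 0.62 at C49F5.7 (spig-15), and the genes that rose also include C11E4.1 (gpx-5, a glutathione peroxidase gene), M153.1 (pycr-1, of proline synthesis) and F42D1.2 (tatn-1), at 0.37, 0.38 and 0.40. Apart from K09E3.4, F41G4.7, K09E3.2 and F47B7.6, no member that fell in H3K9me3 at 23C was called in Pol II. Input gave 0 calls at 23C over all genes (0%), with 93 members higher and 59 lower at an unadjusted p under 0.05 by limma. Over all genes 1087 were higher and 1273 lower at that threshold.

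After the return to 15 °C few members were called, in shares near or below those of all genes. In Pol II 5 of the 1773 members (0.282%) rose in hrde-1 against WT at p15C and 3 (0.169%) fell by limma. Over all genes 0.825% rose and 0.124% fell. None of the 8 was among the 11 called at 23C. The median of all genes was itself 0.12 higher in hrde-1, that of the members 0.15 and that of the named X genes 0.08. Of the 10 yolk and intestine markers 8 were lower in hrde-1, with a median change of -0.68 and summed levels of 938 to 1033 RPKM in WT and 510 to 668 RPKM in hrde-1, and all 7 sperm markers were higher. The part of these in the results was not tested.

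The 3 genes that fell were F31A3.3, C11H1.9 and F22E10.5 (cept-1, which encodes a choline and ethanolamine phosphotransferase of phospholipid synthesis). WT held 1.75 RPKM of Pol II at F31A3.3 (X:17533158-17533978) at 15C-G3, 2.21, 2.52 and 5.99 RPKM over the generations at 23C, and 9.39 and 14.7 RPKM over those at p15C. In hrde-1 F31A3.3 stayed between 1.57 and 2.90 RPKM. WT thus rose over the last 3 generations sampled and hrde-1 did not. The change between genotypes at p15C was -1.97 (SE 0.38, limma adjusted p = 0.0226). C11H1.9 (X:14318054-14320319), which overlaps another gene, had 3.41, 4.28, 6.14, 10.26, 13.1 and 15.4 RPKM in WT and 2.96, 3.78, 4.80, 5.37, 6.29 and 4.37 RPKM in hrde-1, with a change of -1.29 (adjusted p = 0.0853). F22E10.5, which also overlaps another gene, had 14.7 and 15.8 RPKM at p15C in WT and 6.68 and 6.50 RPKM in hrde-1, with a change of -1.10 (limma adjusted p = 0.0301).

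F46F2.3 followed a course like that of F31A3.3, with 1.70, 1.89, 1.41, 8.86, 16.8 and 17.2 RPKM in WT and 1.80 to 4.42 RPKM in hrde-1, but its change of -1.83 at p15C was not called (limma adjusted p = 0.181). At F46F2.3 input was also higher in WT, at 19.5 and 17.7 RPKM against 7.75 and 11.6 RPKM at p15C. At F31A3.3 input at p15C was 9.59 and 10.4 RPKM in WT and 8.20 and 9.61 RPKM in hrde-1.

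The 5 genes that rose were C45B2.1 (spig-20), F53A9.8, C18A11.1, K01A12.2 and the noncoding RNA gene W05H9.3, by 1.18 to 1.26. Pol II at C18A11.1 was 3.60 and 3.21 RPKM at p15C in WT and 10.32 and 8.00 RPKM in hrde-1, where it had been 2.46 to 4.31 RPKM at 15C and 23C. The change was 1.20 (SE 0.27, limma adjusted p = 0.057). At W05H9.3 (X:6252235-6253739) it was WT that moved. Pol II there was 41.02 RPKM at 15C-G3, 40.0, 50.3 and 45.0 RPKM at 23C and 22.2 and 16.9 RPKM at p15C in WT, against 37.2, 33.0, 60.1, 60.7, 46.2 and 44.7 RPKM in hrde-1. The change at p15C was 1.19 (SE 0.26, limma adjusted p = 0.0462). At K01A12.2 the levels were lower, with 0.652 and 0.833 RPKM in WT and 3.73 and 2.30 RPKM in hrde-1.

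With 2 libraries per genotype these calls rested on single libraries. None of the 8 was called without WT p15C-G2 or without hrde-1 p15C-G1, 1 member was called without WT p15C-G1, and 2 without hrde-1 p15C-G2. None was called after input was subtracted. In the fit that paired WT and hrde-1 libraries of a generation, 11 members rose and 9 fell, against 1.20% and 0.249% of all genes. The genes added by the pairing include F46F2.3 at -1.83, Y71H10A.2 (fard-1, which encodes a fatty acyl-CoA reductase) at -1.27 and F41G4.7 at 1.04, with limma adjusted p of 0.00251, 0.00146 and 0.0222.

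**Figure D5:**
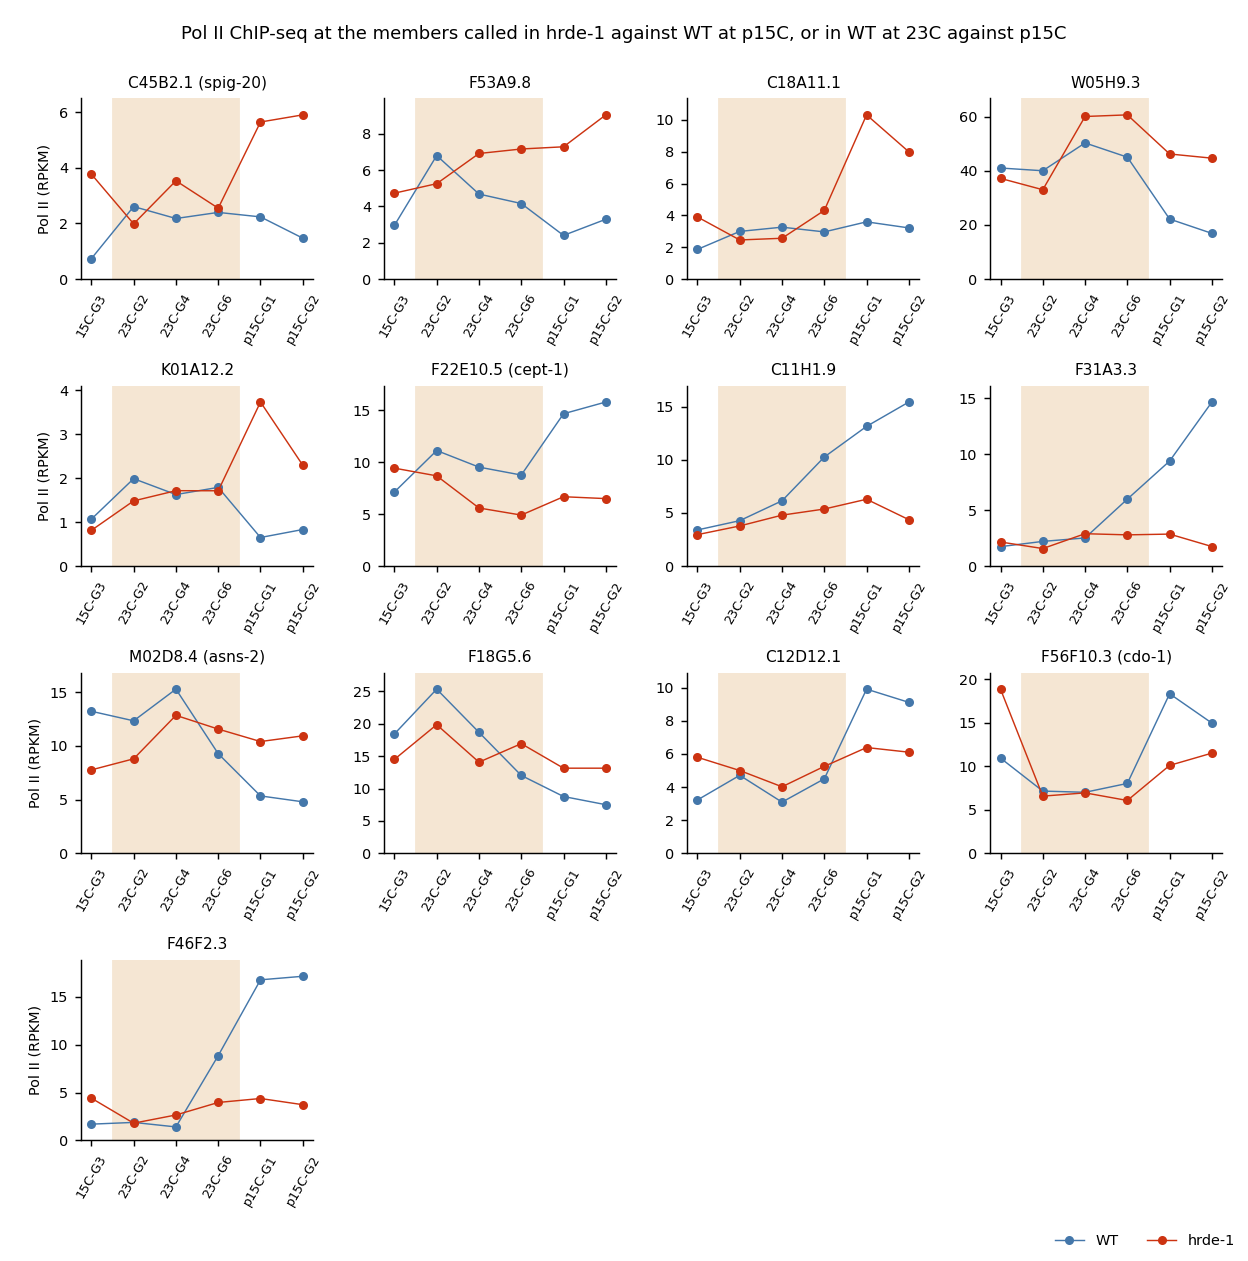
Pol II (RPKM, vertical axes) in each library for the unnamed X genes called in hrde-1 against WT at p15C, or in WT between 23C and p15C. Blue, WT; red, hrde-1; the shaded span covers 23C. WT rises to 9.39 and 14.7 RPKM at p15C at F31A3.3 and to 16.8 and 17.2 RPKM at F46F2.3 while hrde-1 stays at or under 4.42 RPKM at both.

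Within WT, 3 members (0.169%) were higher at 23C than at p15C and 4 (0.226%) were lower by limma. Of all genes 0.184% were called in each direction. The genes higher at 23C were W05H9.3, F18G5.6 and M02D8.4 (asns-2, of asparagine synthesis), and those lower were C12D12.1, F31A3.3, F46F2.3 and F56F10.3 (cdo-1, which encodes cysteine dioxygenase). Pol II at F56F10.3 was 10.9 RPKM at 15C-G3, 7.15, 7.01 and 8.03 RPKM at 23C and 18.3 and 15.0 RPKM at p15C in WT, and 18.9, 6.57, 6.94, 6.07, 10.1 and 11.5 RPKM in hrde-1. In both genotypes the 23C libraries were below all others. The change was -1.07 in WT (SE 0.15, limma adjusted p = 0.0174). These 7 calls fell to 0 without either WT p15C library, and to 1 without WT 23C-G4 or without either hrde-1 library of p15C. They rose to 11 without WT 23C-G2 and to 18 without WT 23C-G6. Counts over all genes in these fits are not given here, so the member counts show only how stable the calls were.

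Within hrde-1, 3 members were higher at 23C than in the single 15C library and 1 was lower, against 0.179% and 0.0497% of all genes by limma. Of the 6 hypodermis markers 5 were higher at 23C, with a median change of 1.05 and a summed level of 62.4 to 101 RPKM against 44.4 RPKM, and 9 of 10 yolk and intestine markers were lower, with a median of -0.85 and a summed level of 409 to 1002 RPKM against 1184 RPKM. Of the 10 germline markers 0 were higher, with a median of -0.34. The part of all these markers in the calls was not tested. R09H3.3 rose by 2.16, F41G4.5 by 1.54 and K09E9.3 by 1.01, and F56F10.3 (cdo-1) changed by -1.40, with adjusted p of 0.0215, 0.0934, 0.0449 and 0.0106. K09E9.3 had 8.72 RPKM at 15C-G3 and 18.1 to 19.2 RPKM at 23C in hrde-1, but 16.1 RPKM at 15C-G3 and 18.1 to 22.2 RPKM at 23C in WT. The change was small at K09E3.2 (0.05) and H39E20.1 (0.03), which were already high in hrde-1 at 15C-G3. With the hrde-1 library of 23C-G4 left out there was 1 call, with that of 23C-G6 left out there were 2, and with that of 23C-G2 left out there were 23. Leaving out WT 23C-G2 gave 15. These counts too are of members only and show how stable the calls were, without those of all genes in the same fits.

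No member was called by limma in the other Pol II comparisons. Between 23C and p15C within hrde-1, 39 members were higher and 101 lower at an unadjusted p under 0.05. Over all 20116 genes 553 were higher and 1088 lower at that threshold, and 0.0249% were called. Against the 15C library the counts at an unadjusted p under 0.05 were 122 higher and 13 lower at 23C in WT, 184 and 16 at p15C in WT, and 145 and 11 at p15C in hrde-1, with 0.0149%, 0.0994% and 0.0149% of all genes called. The median changes of the members in these 3 were 0.24, 0.34 and 0.35, against 0.14, 0.18 and 0.22 over all genes and 0.27, 0.33 and 0.30 over named X genes. Over all genes the counts at that unadjusted p, in the same order, were 1081 and 523, 1442 and 689, and 1426 and 290. Over the named X genes they were 63 and 2, 80 and 9, and 52 and 9. In WT all 7 muscle markers were higher than at 15C in both phases (medians 0.55 and 0.97), with a summed level of 48.8 RPKM at 15C and 64.5 to 109 RPKM later, as were 9 of 9 neuron markers at 23C and 8 of 9 at p15C. Of the 10 germline markers 0 were higher in WT in either phase. In hrde-1 at p15C 3 of 7 muscle markers and 6 of 9 neuron markers were higher than at 15C (medians -0.04 and 0.06). There 5 of 6 hypodermis and 6 of 7 sperm markers were higher (medians 0.94 and 0.60). Of the yolk and intestine markers 3 of 10 were higher (median -0.91), and of the germline markers 1 of 10 (median -0.37). The part of these shifts in the members' was not tested. In the difference between genotypes in the change from p15C to 23C, 0 genes were called (0%). At an unadjusted p under 0.05, 30 members were above and 32 below, and of all genes 158 were above and 333 below. When generations were paired, 3 members were above (R09H3.3, F22H10.4 and F09E10.1, at 1.53, 1.20 and 1.17) and 4 below (F22H10.3, C46F2.1, M02D8.4 and W05H9.3, at -1.42, -1.20, -1.07 and -1.06), against 0.134% and 0.149% of all genes. Their limma adjusted p was 0.0791 or 0.0804.

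In H3K9me3 no member was called by limma in any comparison between phases. Between 23C and p15C, 22 members were higher and 101 lower at an unadjusted p under 0.05 in WT, and 20 and 46 in hrde-1, with 0% and 0.00992% of all genes called. The difference between genotypes in that change gave 29 above and 15 below, with 0% of all genes called. Over all 20167 genes the counts between 23C and p15C were 778 and 589 in WT and 398 and 399 in hrde-1. Their difference gave 250 above and 327 below. Over the 941 named X genes the counts were 7 and 42 in WT and 4 and 23 in hrde-1. Between 23C and 15C the counts of members were 33 and 114 in WT and 53 and 54 in hrde-1 (0.0496% and 0.0645% of all genes called), and between p15C and 15C they were 53 and 75 in WT and 36 and 27 in hrde-1 (0% and 0.00992%). In the same order the counts over all genes were 803 and 998, 703 and 915, 576 and 887, and 439 and 567. Over the named X genes they were 8 and 66, 14 and 27, 19 and 35, and 15 and 8.

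Of the lists of genes with known roles, few members passed the test. Of the 32 neuropeptide and receptor genes, 0 were called by limma in Pol II or H3K9me3 between genotypes. At 23C 1 had an unadjusted p under 0.05 in Pol II (lower) and 4 in H3K9me3 (higher), with median changes at 23C of 0.02 and 0.12, and their WT medians were 2.43 RPKM of Pol II and 8.39 RPKM of H3K9me3. The 11 ion channel and transporter genes had a median Pol II of 4.69 RPKM in WT and changed by a median of 0.06 at 23C, with 0 called by limma and 0 at an unadjusted p under 0.05. The 9 transcription factor genes, the 3 F-box genes and the 3 genes of fatty acid metabolism had 0 calls by limma in Pol II at 23C or p15C, and 1 transcription factor gene was higher at p15C at an unadjusted p under 0.05. Of the 11 noncoding genes only W05H9.3 was called between genotypes, and only in Pol II at p15C.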

How the data were processed

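H3K9me3, Pol II and input ChIP-seq libraries (12 each) of WT and hrde-1 were used. The authors aligned single-end reads to WS190, kept perfect alignments on both strands, and deposited RPKM values (reads of a gene divided by the library's total in megareads and by gene length in kb) without input subtraction. The submitters' processing notes name Bowtie 0.12.7. Every column was mapped to a library by its name. Read numbers were recovered approximately from the RPKM steps (median 73.26% of genes whole within 0.02 reads), so no count test was run.

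Values were tested as log2(RPKM + 1), a scale that understates changes of low genes, with limma 3.58.1 in R 4.3.3. Genes needed a mean of at least 1 RPKM, and 1773 members passed for Pol II and 1776 for H3K9me3. A fit with 6 group means (genotype and phase) shared its spread over all 12 libraries, and a lone 15C library was given the spread of the other groups. Benjamini-Hochberg adjustment ran over all genes. A call needed an adjusted p of 0.1 or less and 2-fold. The fit was tested on simulated data. Named genes were the called members (the 5 largest in each direction where there were more than 10), up to 3 of smallest p where none was called, the 5 highest in WT for each mark, the genes at the edge of the rule and members of the study's high-stringency list; others named were chosen after their values were seen. The members and lists were chosen with earlier results of these data known.

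Alternatives were median centring, no filter, a pseudocount of 0.25, the ratio to input, a replicate block by generation and leaving out each library; using no fold minimum and using only genes with whole reads were added after seeing the data. The generation numbers come from the labels. Deviations of WT and hrde-1 libraries of 1 generation correlated across genes at 0.709, 0.355 and 0.496 at 23C and 0.527 at p15C in Pol II, so the generation numbers pair the Pol II libraries; the counts given first still come from the fit without the block, and paired values stand beside the results they change. The correlations were 0.104, 0.052, 0.207 and 0.119 in H3K9me3, which was not treated as paired.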

Additional observations from a re-analysis of the deposited data

How the results depend on the processing

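The number of unnamed X genes called in Pol II at 23C was 11 to 14 when single libraries were left out, and 5 when only genes with whole reads were tested, an alternative added after seeing the data that removes 6 of the 11. The other Pol II counts were less stable. Without single libraries they ranged from 0 to 12 between genotypes at p15C, 0 to 18 in WT between 23C and p15C, 0 to 2 in hrde-1 between 23C and p15C, 1 to 23 in hrde-1 between 23C and 15C, 0 to 1 in WT between 23C and 15C, 0 to 14 in WT between p15C and 15C, and 0 to 1 for the difference between genotypes. For H3K9me3 they ranged from 0 to 1 between genotypes at p15C and in WT between 23C and 15C. With the ratio to input, whose libraries are the shallowest, 0 members were called in Pol II between genotypes at p15C, 0 in WT between 23C and p15C and 0 in hrde-1 between 23C and 15C, and 2 in H3K9me3 at 23C and 0 at p15C. Pairing the libraries by generation (the replicate block) gave 20 calls in Pol II at p15C and 7 for the difference between genotypes, and changed no other count of Pol II or H3K9me3 calls by over 1.5 times. Median centring gave 2 calls in hrde-1 between 23C and p15C in Pol II. Only genes with whole reads gave 1 call in WT between p15C and 15C in Pol II and 0 in H3K9me3 at p15C. With no fold minimum there were 11 calls in WT between 23C and p15C, 12 at p15C in Pol II, 42 and 13 in H3K9me3 between genotypes at 23C and p15C, and 1 in hrde-1 between 23C and 15C. With the ratio to input the H3K9me3 change reversed to -0.15 at C40H5.7 (hrde-1, 23C against 15C) and to -0.86 at C03B1.4 (WT, p15C against 15C), neither of them called. The cause of these differences was not tested. All counts in this section are of members, and those of all genes under the same settings are not given here. Of 815 values of named genes with a library left out, 710 kept their direction and side of the threshold, 89 no longer passed, 16 newly passed and 0 changed direction. Depth limits input most, at 5 to 33 reads for the median member.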
